A study of Homo sapiens with 4 samples.

Results

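The 6 genes described here are *ATF3*, *ATF5*, *CEBPB*, *TRIB3*, *HERPUD1* and *HSPA6*, of 143 genes in the table that the authors deposited for their RNA-seq comparison. They encode transcription factors and effectors of the cellular stress response. They were chosen by symbol, with their expression values in this comparison known, and every gene of the table had in turn been selected on the same comparison, since all 143 have an adjusted p under 0.05 there. That the 6 genes differ between the groups is therefore how they came to be here and not a finding, and no test was run on it.

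RNA-seq was performed on the human erythroleukemia line K562, in 2 libraries of cells given 20 µM TRIAC, a metabolite of thyroid hormone, and 2 libraries of cells given its solvent DMSO. Both groups also received 10 µM hemin, which drives K562 cells along the erythroid path, and TRIAC or DMSO was left on for 48 h. All libraries come from the same tumor line, and the sources used here do not say whether the 2 libraries of a group were separate cultures. The table holds 1 expression value per group, in a unit that is not given, so there is no SD, no depth and no interval behind any value below. A gene without a row was not analysed here. The erythroid genes *HBZ*, *HBA1*, *HBA2*, *HBE1*, *HBG2*, *ALAS2*, *HEMGN* and *KLF1*, which are globins, a heme synthesis enzyme and factors of the red cell lineage, have a row, with expression values from 19.8 to 25809 in DMSO-treated cells. All 8 were higher with TRIAC, and their part in the values below was not tested. In bulk RNA, fewer cells that express a gene and less RNA per cell cannot be told apart.

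When amino acids run short, when unfolded proteins collect in the endoplasmic reticulum (ER) or when heme is lacking, kinases phosphorylate the translation factor eIF2α. General protein synthesis then slows while the mRNA of the transcription factor ATF4 is translated better, a program called the integrated stress response. ATF4 is a bZIP protein: it binds DNA with a basic region and pairs with other bZIP proteins, among them those of the C/EBP family, through a leucine zipper. Its known targets include further bZIP factors such as ATF3 and ATF5 and the feedback inhibitor TRIB3. The ER has its own sensors beside this route, and unfolded proteins in the cytosol are answered by the heat shock factor HSF1. The program matters in red cell precursors in particular, in which the heme-regulated eIF2α kinase matches globin synthesis to the supply of heme.

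The 6 genes had lower expression values with TRIAC than with DMSO, as had 57.3% of the genes of the table, and nothing is read from this count because the choice of the genes used the contrast. Of the 6, 4 were at least 4-fold lower, namely *HSPA6*, *ATF3*, *ATF5* and *TRIB3*, against 43.6% of the 140 rows whose values were both above 0. *HERPUD1* and *CEBPB* were 3.95 and 3.56 times lower. The 140 rows include the higher genes. Of the 80 lower genes among them, 61 were at least 4-fold lower, and nothing particular to the 6 genes is read from this count. The median of the 6 was 5.13 times lower, a log2 ratio of -2.36. The 80 lower genes with both values above 0 had a median of 5.99 times lower, and 4 of the 6 genes lay under that median.

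**Figure D1:**
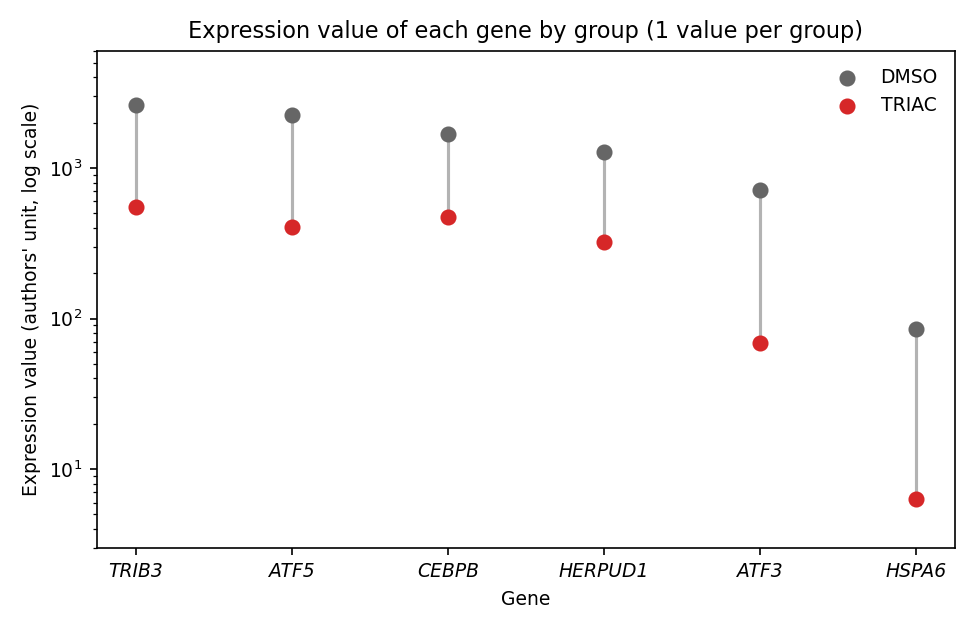
Expression value of the 6 genes (vertical axis, authors' unit, log scale) with DMSO (gray points) and with TRIAC (red points), with 1 value per group, no error, and a line joining the values of a gene. The values are not divided by length, and the line is longest for *HSPA6*, from 85.5 to 6.34.

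Among the bZIP factors, *ATF3* encodes a factor that is induced by many kinds of stress and often acts as a repressor. It lies on chromosome 1 of GRCh38 from 212565407 to 212620777, and its canonical GENCODE transcript has 4 exons. Its expression value was 710.2 in DMSO-treated cells and 69.0 in TRIAC-treated cells, which is 10.3 times lower, a log2 ratio of -3.36. With TRIAC 9.71% of the DMSO value was left, the lowest share of the 3 bZIP genes. By expression value per kb of listed length, *ATF3* ranked 35th of 143 genes with DMSO and 94th with TRIAC.

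*ATF5* encodes a bZIP factor that, like ATF4, is translated better when eIF2α is phosphorylated, and that is known for its part in the mitochondrial stress response. The gene lies on chromosome 19 from 49928906 to 49933935 and has 3 exons in its canonical transcript. Its expression value was 2235 with DMSO and 407 with TRIAC, 5.49 times lower, a log2 ratio of -2.46. By expression value per kb it ranked 20th of 143 with DMSO and 44th with TRIAC.

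*CEBPB* encodes C/EBPβ, a factor of myeloid, fat and liver cells that can pair with ATF4. It is a gene of a single exon on chromosome 20, from 50190583 to 50192690. *CEBPB* had an expression value of 1675 with DMSO and 470.4 with TRIAC, 3.56 times lower, a log2 ratio of -1.83. This was the smallest fold difference of the 6 genes. The order of *ATF5* and *CEBPB* therefore differed between the groups: *ATF5* was at 1.33 times the value of *CEBPB* with DMSO and at 0.865 times with TRIAC, with the same listed length for both genes. The difference between these neighbours cannot be set against a spread, since there is 1 value per group.

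*TRIB3*, a Tribbles pseudokinase, encodes a protein that binds ATF4 and the kinase AKT and restrains both. It lies on chromosome 20 from 380760 to 397559, with 4 exons in its canonical transcript. Its expression value was 2614 with DMSO and 547 with TRIAC, 4.77 times lower, a log2 ratio of -2.26. With TRIAC 20.9% of the DMSO value was left. By expression value per kb it ranked 19th of 143 with DMSO and 39th with TRIAC.

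*HERPUD1* encodes a ubiquitin-like protein of the ER membrane that helps to pass misfolded proteins on to degradation by the proteasome. It lies on chromosome 16 from 56932142 to 56944864, with 8 exons in its canonical transcript. Its expression value was 1271 with DMSO and 322 with TRIAC, 3.95 times lower, a log2 ratio of -1.98. With TRIAC 25.3% of its DMSO value was left, against 28.1% for *CEBPB* and 20.9% for *TRIB3*.

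*HSPA6* encodes an inducible chaperone of the Hsp70 family that most unstressed cells hardly make. It is a gene of a single exon on chromosome 1, from 161524540 to 161526894. *HSPA6* had an expression value of 85.5 with DMSO and 6.34 with TRIAC, 13.5 times lower, a log2 ratio of -3.75. This was the largest fold difference of the 6 genes. *HSPA6* was also the only one of them with a DMSO value per kb, 36.1, under the median of all rows, 72.0. When 10 was added to both values its log2 ratio was -2.55, while that of *ATF3* was -3.19. *HSPA6* therefore did not keep the largest fold difference of the 6 genes on that scale.

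Not all of these values belong to 1 gene with certainty. Of the windows of 50 bases in the canonical *HSPA6* transcript, 45.8% also lie in a transcript of *HSPA7*, a near-identical neighbour that is listed as a pseudogene. Of the windows of *CEBPB*, 10.3% lie in transcripts of *CEBPB-AS1*, an antisense gene, and of those of *ATF5*, 7.61% lie in transcripts of *NUP62*. Over all other genes together the shares were 10.4% for *CEBPB* and 8.89% for *ATF5*. The sources used here do not say how strand and shared reads were treated in counting. The values of *HSPA6*, *CEBPB* and *ATF5* are therefore uncertain, and the shares do not say by how much. *HSPA7*, *CEBPB-AS1* and *NUP62* have no row. *ATF3* and *TRIB3* share no window with another gene, and *HERPUD1* shares 0.499% of its windows.

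Levels of different genes can be set side by side only per length, so each expression value was divided by the length that the table lists. Since the unit is not given, the values may already be divided by length, in which case the undivided values are the ones to compare and the levels and shares per kb given here do not hold. The order of the 6 genes was the same on both scales in either group. These lengths lie close together, from 1943 bases for *HERPUD1* to 2426 for *TRIB3*. The canonical GENCODE transcript of *HERPUD1* is longer, at 2853 bases, and by that length its levels per kb would be lower. By canonical lengths only the order with DMSO was looked at, so the order and shares with TRIAC hold for the listed lengths alone. On the scale of expression value per kb, *TRIB3* was at 1077 and *ATF5* at 1058 in DMSO-treated cells. *CEBPB* was at 793 per kb, *HERPUD1* at 654, *ATF3* at 338 and *HSPA6* at 36.1. *TRIB3* and *ATF5* changed places when the canonical GENCODE transcript gave the length, so they cannot be ranked against each other.

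In TRIAC-treated cells the levels per kb were 226 for *TRIB3*, 223 for *CEBPB*, 192 for *ATF5* and 166 for *HERPUD1*. *ATF3*, at 32.9, and *HSPA6*, at 2.68, lay below these 4 genes. The highest level per kb was 29.9 times the lowest with DMSO and 84.4 times with TRIAC, and 30.6 and 86.3 times without division by length. Of the summed levels per kb of the 6 genes, *ATF3* made up 8.55% with DMSO and 3.90% with TRIAC, and *ATF5* 26.7% and 22.9%. The share of *CEBPB* was 20.0% with DMSO and 26.4% with TRIAC, and that of *HERPUD1* 16.5% and 19.7%. *HSPA6* made up 0.911% and 0.318%. *TRIB3* held nearly the same share in both groups, 27.2% and 26.8%. Within the set, then, *ATF3*, *ATF5* and *HSPA6* were lower in share and *CEBPB* and *HERPUD1* higher, as their ratios imply.

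**Figure D2:**
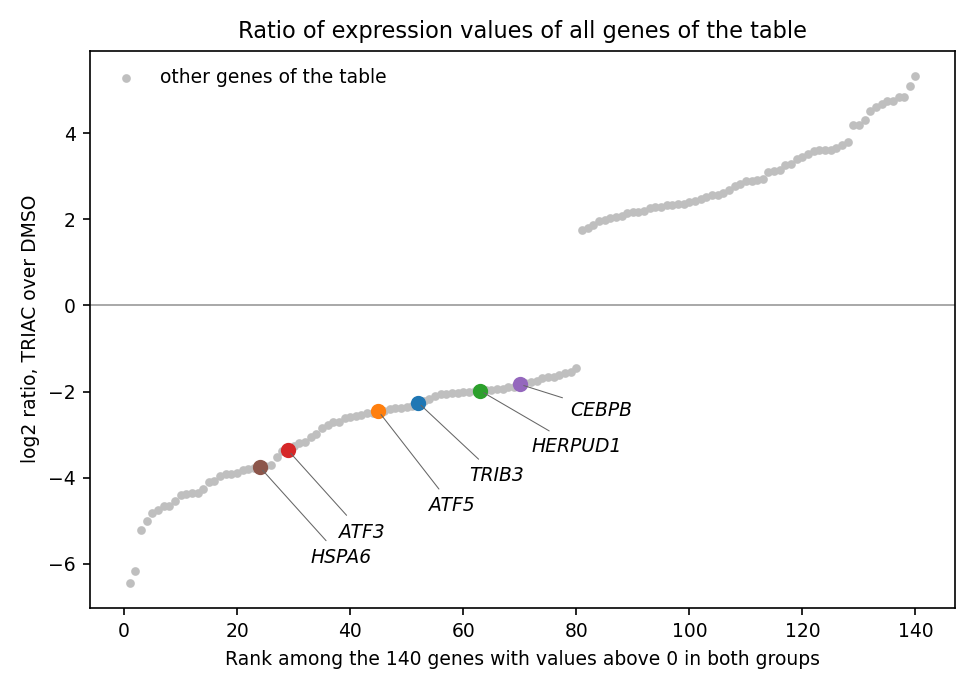
Log2 ratio of the expression values, TRIAC over DMSO (vertical axis), of the 140 genes whose values are both above 0, ordered from the lowest to the highest (horizontal axis, rank). The 6 named genes (colored points) lie between the 24th rank, *HSPA6*, and the 70th, *CEBPB*, all below 0, and the gap around 0 is where the table lists no gene.

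By log2 ratio, the 6 genes were spread over the 80 lower genes: *HSPA6* had the 24th lowest of 140 ratios, *ATF3* the 29th, *ATF5* the 45th, *TRIB3* the 52nd, *HERPUD1* the 63rd and *CEBPB* the 70th. For each gene the 2 others with the nearest log2 ratio were looked up. With only 2 group values a pattern is no more than this ratio. Nearest to *ATF3* were *STC2*, a secreted glycoprotein, and *CTH*, an enzyme of cysteine synthesis, with log2 ratios of -3.38 and -3.26. Nearest to *ATF5* were the amino acid transporter gene *SLC1A4* (-2.45) and the tryptophanyl-tRNA synthetase gene *WARS* (-2.50).

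*HERPUD1* lay beside the glucose transporter gene *SLC2A3* (-1.98) and the cysteinyl-tRNA synthetase gene *CARS* (-1.97). *CEBPB* lay beside *ITGA5*, an integrin subunit (-1.80), and *FAM129A* (-1.89), and *TRIB3* beside *FNBP1* (-2.21) and the myeloid transcription factor gene *SPI1* (-2.18). The nearest to *HSPA6* were *ALDH2*, the mitochondrial aldehyde dehydrogenase (-3.77), and the receptor gene *IL20RB* (-3.73).

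The genes around them in the pathway were counted from 7 lists, which were written with earlier results of these data known and hold 172 different genes. Of these, 25 have a row, 24 lower and 1 higher. In the list of 42 targets of ATF4, which holds every one of the 6 genes but *HSPA6*, 22 genes have a row and all 22 were lower. Of the 37 targets other than these 5 genes, 17 have a row, all lower and 14 of them at least 4-fold. Of all the rows 57.3% were lower, and of the 80 lower genes with both values above 0, 61 were at least 4-fold lower. The median log2 ratio of the 17 targets was -3.05, beside -2.58 for the lower genes of the table and -1.82 for all its rows. The list was written with results known, so nothing particular to it is read from these counts, and the other 20 targets have no row.

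The largest fold differences in this list belong to *NUPR1* and *ADM2*. *NUPR1*, a small stress-induced nuclear protein, had expression values of 204 and 6.34, and *ADM2*, a secreted peptide, had 285 and 10.6. Their log2 ratios were -5.01 and -4.75. *DDIT4*, an inhibitor of mTORC1, went from 5428 with DMSO to 258 with TRIAC, and *PHGDH*, the first enzyme of serine synthesis, from 3223 to 155. The smallest fold differences were those of the aminoacyl-tRNA synthetase genes *SARS* (log2 ratio -1.67) and *MARS* (-1.61). The median log2 ratio of the 22 genes was -2.52, and *ATF3* lay below it, while *ATF5*, *TRIB3*, *HERPUD1* and *CEBPB* lay above it.

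**Figure D3:**
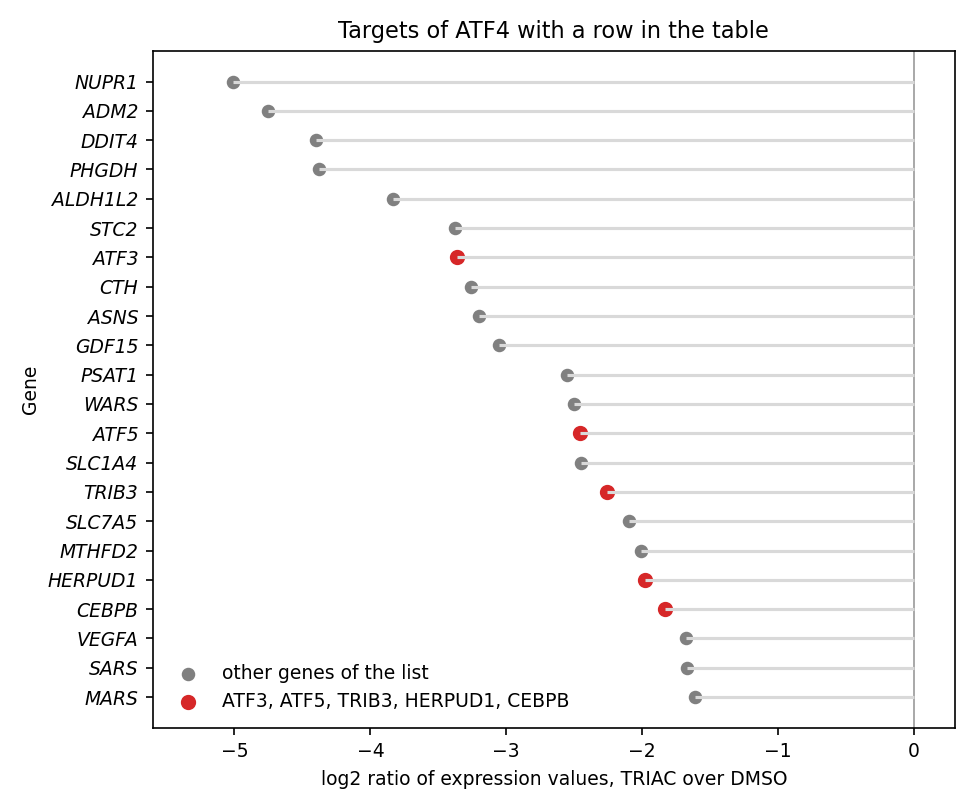
Log2 ratio of the expression values, TRIAC over DMSO (horizontal axis), of the 22 targets of ATF4 that have a row in the table (vertical axis), with 1 value per group and no error. All lie below 0, from -5.01 for *NUPR1* to -1.61 for *MARS*, and *ATF3*, *ATF5*, *TRIB3*, *HERPUD1* and *CEBPB* (red) lie between -3.36 and -1.83.

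For the other branches of the stress response, counts of genes with a row say little, since the table holds only 143 selected genes and the share of all genes that it lists is not known here. Of 36 genes of the unfolded protein response and of ER-associated degradation, 1 has a row, *HERPUD1*, and of 30 heat shock proteins, cochaperones and heat shock factors, 1 has a row, *HSPA6*. *TRIB3* is the only one of the 3 Tribbles genes with a row. No row was found for any of 12 genes of the eIF2α kinases and phosphatase subunits, *ATF4* itself among them, or of 13 oxidative and heme stress targets of NRF2 and BACH1. These genes were not analysed here, so they cannot be called unchanged. Of 49 bZIP genes, 5 have a row. Beside *ATF3*, *ATF5* and *CEBPB* these are *JDP2*, a bZIP repressor related to ATF3, and *DBP*, a circadian bZIP factor. *JDP2* was lower, at 93.0 with DMSO and 6.26 with TRIAC (log2 ratio -3.89). *DBP* was higher, at 56.7 and 278 (2.29).

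The annotation columns of the table give what the 6 genes share beyond their ratios. The term shared by the most of them is nucleoplasm, carried by *ATF3*, *ATF5*, *CEBPB* and *TRIB3* and by 12 genes of the table in all, of which 8 were lower and 4 higher. *ATF3* and *TRIB3* share the term for repression of transcription by RNA polymerase II with 8 other genes, and of these 10 genes 6 were lower and 4 higher. *TRIB3* and *HSPA6* are among 15 genes annotated to ATP binding, 11 lower and 4 higher. *ATF5* and *CEBPB* share a term for binding to regulatory DNA with *DBP*, which was higher. Higher genes were also among those that share cytosol with *TRIB3* and *HSPA6* (24 lower, 9 higher) and a term for inhibition of caspase-type proteases with *HERPUD1* and *HSPA6* (3 lower, 1 higher). *ATF3* and *HERPUD1* are both annotated to the PERK-mediated unfolded protein response, as is 1 other gene of the table, *ASNS*, and all 3 were lower. *ATF3* and *CEBPB* share the term for activation of transcription in response to ER stress, which no other gene of the table carries. *HERPUD1* and *HSPA6* are both placed in the pathway of protein processing in the ER, together with *FAM129A*, and all 3 were lower. *ATF3* and *TRIB3* are the only 2 genes of the table with the term transcription corepressor activity. *ATF5* and *CEBPB* share fat cell differentiation with *SMAD6*, all 3 lower. Each count of lower genes here includes some of the 6 genes, which were chosen with their values known. Of all the rows 57.3% were lower, and nothing is read from these counts.

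Promoter sequence was examined because the 6 genes belong to programs with known DNA elements. RefSeq (GRCh38.p14) windows of 300 bases, 250 before and 50 from the transcription start on, were matched for all 6 genes, 12 windows in all, since 4 of the genes have several starts in the table. Of these windows 9 had a GC content above 58.7%, the median of all windows. The sequences of 3 genes are shown, picked after the search as those with an element of the ATF4, ER stress or heat shock programs. Each is the 250 bases before the start, on the plus strand and 5′ to 3′, with every match to a motif searched in capitals. They are chr16:56931892-56932141 for *HERPUD1*, chr1:161524290-161524539 for *HSPA6* and chr1:212565157-212565406 for the first of 2 starts of *ATF3*.
HERPUD1: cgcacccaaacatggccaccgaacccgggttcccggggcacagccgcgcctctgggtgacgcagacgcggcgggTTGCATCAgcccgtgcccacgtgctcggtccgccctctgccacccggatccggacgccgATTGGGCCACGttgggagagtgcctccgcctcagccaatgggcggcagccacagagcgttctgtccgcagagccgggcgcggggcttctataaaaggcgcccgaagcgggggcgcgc
HSPA6: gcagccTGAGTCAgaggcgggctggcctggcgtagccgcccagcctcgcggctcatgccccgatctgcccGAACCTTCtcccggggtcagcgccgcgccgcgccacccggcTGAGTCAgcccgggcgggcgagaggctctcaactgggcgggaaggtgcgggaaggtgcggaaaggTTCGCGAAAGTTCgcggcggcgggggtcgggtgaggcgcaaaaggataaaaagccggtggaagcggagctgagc
ATF3: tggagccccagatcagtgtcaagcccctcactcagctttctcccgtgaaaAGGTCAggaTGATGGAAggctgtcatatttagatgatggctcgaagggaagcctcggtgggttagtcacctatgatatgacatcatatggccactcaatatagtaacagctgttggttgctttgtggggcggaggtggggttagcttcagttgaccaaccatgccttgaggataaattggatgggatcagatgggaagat

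The C/EBP-ATF composite site that ATF4 binds was searched as TGATGNAA on both strands. It occurred in 2 of the 12 windows, upstream of *HERPUD1* (on the minus strand, bases -176 to -169 from the start) and of the first start of *ATF3* (bases -191 to -184), and in 3.62% of all 35116 windows of the table. *HERPUD1* also held the second form of the ER stress response element, ATTGG and CCACG parted by 1 base, at -117 to -107. This form, added after the first was seen to be missing, is present in 0.0541% of all windows. Because it was added afterwards, nothing is read from how rare it is. The first form, CCAAT and CCACG parted by 9 bases, was in none of the 12 windows and in 0.0769% of all windows.

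*HSPA6* held the paired units of a heat shock element. GAANNTTC lay at -180 to -173 and at -69 to -62, and TTCNNGAA at -74 to -67, overlapping the second of these so that 3 units follow each other. These motifs occur in 6.77% and 7.74% of all windows and in no window of the other 5 genes. The AP-1 site, TGANTCA, occurred at -244 to -238 and -139 to -133 of *HSPA6* and at -188 to -182 of the first start of *ATF5*, and in 7.71% of all windows.

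The 6-base nuclear receptor element AGGTCA, of which thyroid hormone receptors bind pairs, was in 4 of the 12 windows and in 13.8% of all. It lay at -200 to -195 of the first start of *ATF3*, next to the composite site. The other matches are 1 and the same site of *TRIB3*, seen from its 3 starts. A direct repeat of AGGTCA with 4 bases between, the usual thyroid hormone response element, was in none of the 12 windows and in 0.0199% of all. The cyclic AMP response element TGACGTCA (1.85% of all windows) and the C/EBP palindrome TTGCGCAA (0.151%) were in none of the 12. No match was found in either window of *CEBPB*. These are matches of letters in short windows, which describe the sequence and do not show binding, and the starts used by K562 cells were not examined. Starts without a window were not searched. The windows of *ATF3* are for starts at 212565407 and 212615018, and the bases between the windows were not searched. *TRIB3* begins at 380760, but its first window begins at 381045. A motif said to be missing is missing from these windows alone.

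**Figure D4:**
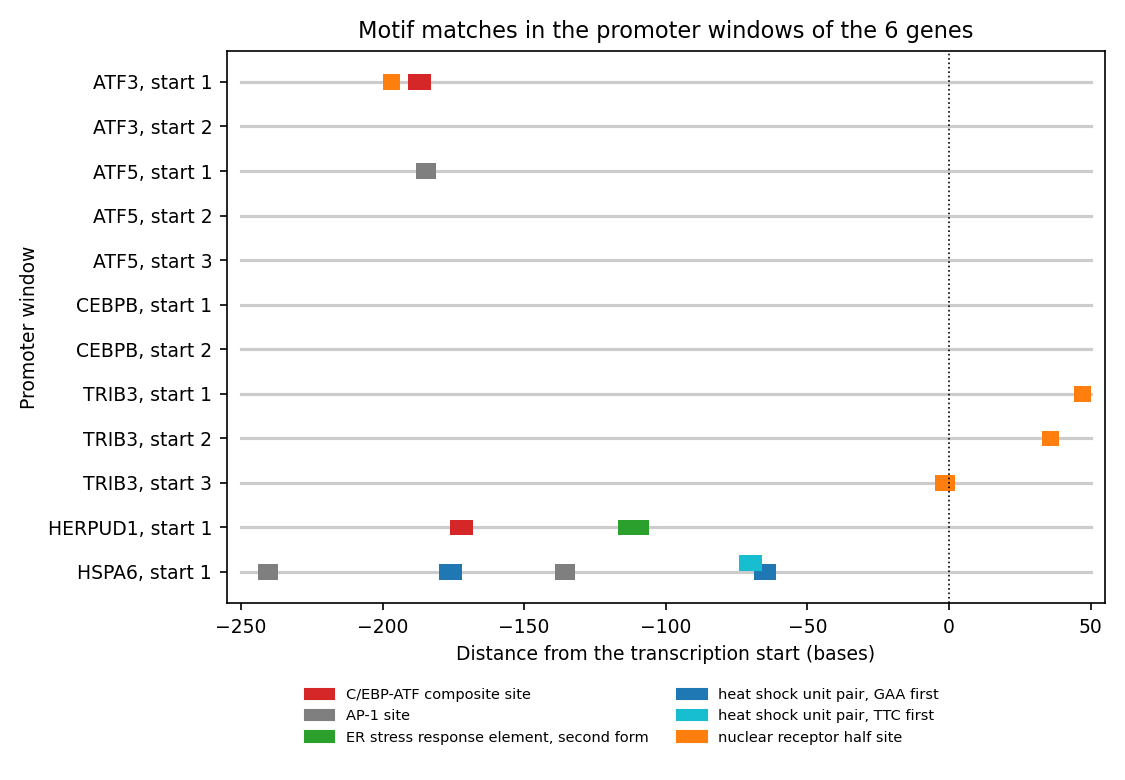
Matches to the motifs (colored boxes) in the 12 promoter windows of the 6 genes (vertical axis, 1 line per transcription start), by distance from the start in bases (horizontal axis). *HSPA6* has 5 matches, *HERPUD1* 2, the first start of *ATF3* 2, the first start of *ATF5* 1, each *TRIB3* start the same AGGTCA (orange), and the *CEBPB* windows none.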

How the data were processed

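RNA-seq libraries were made from K562 cells, 2 per group, and the groups were taken from the sample titles. According to the submitters' notes, edgeR, RSEM, Bowtie2, FastQC, Trimmomatic, CASAVA 1.8 and the build GRCh38 were used, without order or settings, and their design text names other aligners. The authors deposited a table of 143 genes with 1 expression signal value per group, a listed length, and the fold changes and p-values of their own comparison. The unit, and how 2 libraries became 1 value, are not given in the sources used here. Their fold changes were not used, and their deposited adjusted p-values were read only to check that all 143 are under 0.05. Both expression columns were matched to a group.

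From the table, log2 ratios of the 2 expression values, values per kb, ranks and counts in gene lists were computed without a test, because there is 1 value per group. The members and lists were chosen with earlier results of these data known. Named are the 6 genes, the 2 genes nearest to each by log2 ratio and up to 4 genes of each list with the largest absolute log2 ratio; *SARS*, *MARS*, *ASNS* and *SMAD6* were chosen after their values were seen. Gene positions are from RefSeq (GRCh38.p14), exons and shared windows from GENCODE 44, and motifs were matched exactly on both strands. Alternatives were a pseudocount, other scalings, folds, lengths and windows. A planned comparison of proteins was not run, and 1 marker gene is not reported here. The scripts, first tested on simulated data, ran in Python 3.11.15 with pandas 2.3.3 and numpy 2.4.6, and matplotlib 3.10.9 drew the plots.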

Additional observations from a re-analysis of the deposited data

How the results depend on the processing

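Over the alternatives run, the 6 genes stayed lower with TRIAC at every setting, and no log2 ratio changed sign. Adding the same number to both values cannot change a sign. Division by each group's sum moved all 6 ratios further down, so only the centring could have shown otherwise. The median log2 ratio of the 6 genes, -2.36, was -2.35 with 1 and -2.33 with 10 added to both values. It was -0.54 when ratios were centred on the median of all rows, which is -1.82 because the table holds more lower than higher genes, and *CEBPB* was then at -0.01. When each group's values were divided by their sum over the rows it was -3.01. The sum was larger with TRIAC, where *HBG2* alone was at 114251, against 25809 with DMSO. Without *HSPA6*, an alternative added after the data were seen, the median log2 ratio was -2.26. All 6 genes were at least 2-fold lower and 4 at least 4-fold. Of all 143 genes, 82 were at least 2-fold and 63 at least 4-fold lower, 2 of them at 0 with TRIAC. These 82 are all the lower genes of the table, so the 2-fold limit could not change the count of the 6 genes. The median level per kb of the 6 genes with DMSO was 723 by the listed lengths and 678 by canonical transcripts. No paired analysis was possible because there is 1 value per group, and for the same reason no library could be left out. The depth is unknown, so which of these ratios exceed the spread between libraries was not tested.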

Other observations

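*FAM129A*, chosen after its values were seen, is among the 2 genes nearest to *CEBPB* by log2 ratio, and the table annotates it to protein processing in the ER with *HERPUD1* and *HSPA6*. Its expression value was 668 with DMSO and 180.1 with TRIAC.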
